A study of Homo sapiens with 6 samples.

Results

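The genes described here are 10 of the autophagy machinery, taken by name from the 58735 rows of the deposited table, where each was found in 1 row. They comprise the cargo receptor genes SQSTM1 and NBR1, the ATG8 family genes MAP1LC3B and GABARAPL1, and the core genes ULK1, BECN1, WIPI1, ATG9A, ATG5 and ATG7. RNA of T84 cells, an established human colorectal cancer line that forms a colonic epithelium in culture, was sequenced in 3 libraries carrying a control hairpin (shControl, genotype labelled WT) and 3 carrying a hairpin against ACSL4 (shACSL4, genotype labelled as an Acsl4 knockdown). The cells of both groups were grown in DMEM/F12 medium with serum. The series text speaks of a knockout, while titles and genotype labels speak of hairpins and knockdown. The labels do not say how many hairpins or clones stand behind each group, or whether the libraries of a group are separate cultures. The p-values therefore rest on the variation between these 6 libraries, which may be technical variation.

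Autophagy encloses cytoplasm in a double membrane, the autophagosome, and delivers it to the lysosome. The ULK1 kinase complex starts the process, the BECN1-containing class III PI3-kinase marks the growing membrane with PI3P, WIPI proteins read that mark, and ATG9A supplies membrane and moves lipid across it. ATG7 and ATG5 belong to the enzymes that attach ATG8 proteins such as LC3B to the membrane lipid phosphatidylethanolamine, and receptors such as p62 (SQSTM1) and NBR1 tether ubiquitin-tagged cargo to these ATG8 proteins. Receptor and ATG8 proteins are themselves consumed in the lysosome. Messenger RNA levels, which are what was measured here, do not give the rate at which cargo is degraded.

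Library totals lay between 14740383 and 17620630 counts, and 15694 genes passed the filter on low counts, all 10 autophagy genes among them with mean counts from 173 (GABARAPL1) to 8556 (SQSTM1). ACSL4 itself stood at 72.0 to 75.5 CPM (counts per TMM-scaled library size) in shControl and 9.12 to 11.1 CPM in shACSL4 (log2 fold change -2.85, SE 0.10, edgeR adjusted p = 3.6e-12). All 8 markers of colonic epithelium and T84 cells had counts in every library, at a summed 5174 to 5965 CPM in shControl and 6027 to 7053 CPM in shACSL4, without overlap between the groups. These 8 did not move together: KRT8 (0.51), KRT20 (0.88), VIL1 (0.47) and GUCY2C (0.32) were called higher by edgeR, EPCAM was called lower, from 1468 to 1097 CPM (-0.42), and CDH1, CDX2 and CFTR were not called. The sum rests largely on KRT8, at 2128 and 3034 CPM. The 12 markers of other cell types summed to 5.59 to 7.26 CPM in shControl and 3.99 to 5.25 CPM in shACSL4, with CD3E and S100B at 0 counts in every library. The part of these marker shifts in the results below was not tested. In bulk RNA, fewer cells expressing a gene and less RNA of it per cell cannot be told apart.

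Of the 10 genes, 4 fell in shACSL4 and 0 rose (edgeR's quasi-likelihood test, adjusted p below 0.05). WIPI1 fell most, to 47.0% of its shControl level, SQSTM1 fell to 59.6%, GABARAPL1 to 78.3% and NBR1 to 80.3%. Both cargo receptor genes were therefore lower, as were 1 of the 2 ATG8 genes and 1 of the 6 core genes. Over all genes tested, 47.2% were called in either direction, 23.1% lower and 24.0% higher, so 4 calls among 10 is a share near the background. The median log2 fold change of the 10 was -0.19, against 0.01 over all genes tested. At an unadjusted p under 0.05 there were 7 of the 10, with ATG7 the 1 higher gene among them, against 53.7% of all genes tested. DESeq2 and limma-voom likewise called 0 higher. With library size alone as scaling, which moved the median of all genes to 0.13, SQSTM1, NBR1 and WIPI1 stayed called as lower and MAP1LC3B, ATG7 and ATG9A were called higher, against 16.3% lower and 31.1% higher over all genes in that setting. Against a fold of 1.2, SQSTM1 and WIPI1 were called, 2 of the 10, beside 29.6% of all genes.

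**Figure D1:**
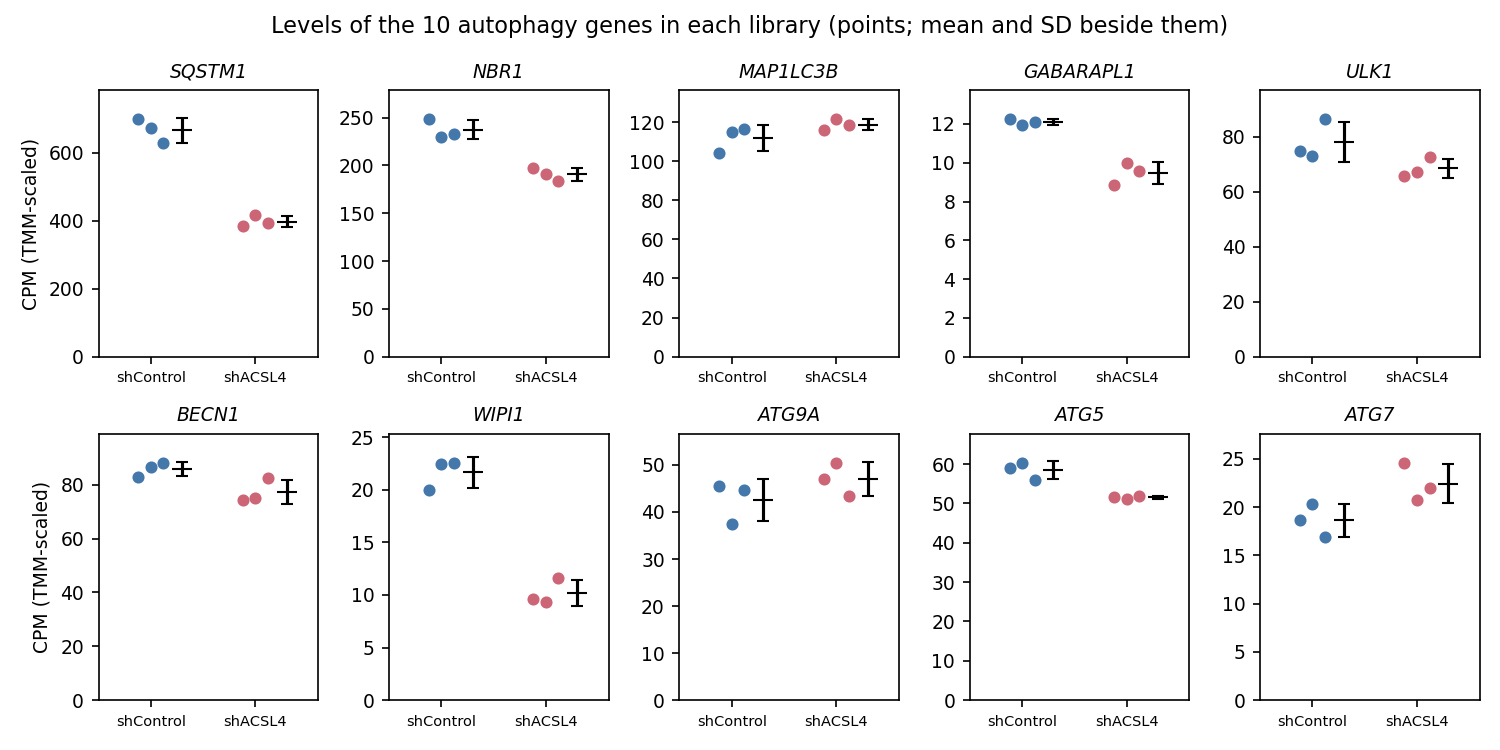
Level of each of the 10 genes in TMM-scaled CPM (vertical axes from 0), by group; points are the 3 libraries of a group and the bar beside them is the mean and SD. The points of SQSTM1, NBR1, GABARAPL1 and WIPI1 lie lower in shACSL4 without overlap, while those of MAP1LC3B and ATG9A overlap.

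The groups did not overlap for 8 of the 10 genes, MAP1LC3B and ATG9A being the exceptions. Over all genes tested that share was 55.1%, made up of 26.8% lower and 28.3% higher. The direction among the 8 was lower in shACSL4 for SQSTM1, NBR1, GABARAPL1, WIPI1, ULK1, BECN1 and ATG5 and higher for ATG7. Among these 8, ULK1, BECN1, ATG5 and ATG7 were not called.

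The stretches before RefSeq transcription starts of SQSTM1 and WIPI1 are shown because these genes had the largest falls. That of MAP1LC3B is shown because it is the 1 gene of the 10 whose window holds an antioxidant response element core. The sequences are RefSeq's for GRCh38.p14, 250 bases ending just before the RefSeq start nearest to that of the main GENCODE transcript, read 5′ to 3′ on the gene's strand. That RefSeq start lay 146 bases from the main GENCODE start for SQSTM1, 75 for WIPI1 and 536 for MAP1LC3B. The main GENCODE start of SQSTM1 falls inside the printed stretch. For MAP1LC3B the whole printed stretch lies downstream of the main GENCODE start. Capitals mark the GC box (GGGCGG, either strand) in SQSTM1 and WIPI1 and the antioxidant response element core (TGACNNNGC, either strand) in MAP1LC3B. The windows are chr5:179820655-179820904 (plus strand), chr17:68457497-68457746 (minus strand) and chr16:87392086-87392335 (plus strand).
SQSTM1: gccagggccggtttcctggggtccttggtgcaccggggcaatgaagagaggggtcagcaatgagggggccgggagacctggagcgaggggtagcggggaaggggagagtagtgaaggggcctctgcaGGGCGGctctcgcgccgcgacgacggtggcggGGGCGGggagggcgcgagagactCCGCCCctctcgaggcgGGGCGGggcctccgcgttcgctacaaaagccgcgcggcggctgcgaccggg
WIPI1: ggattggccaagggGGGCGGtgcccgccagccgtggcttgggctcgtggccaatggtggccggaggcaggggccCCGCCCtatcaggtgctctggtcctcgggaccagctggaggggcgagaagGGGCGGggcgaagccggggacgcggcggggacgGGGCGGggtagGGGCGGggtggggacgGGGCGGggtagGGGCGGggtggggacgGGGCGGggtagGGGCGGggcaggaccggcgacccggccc
MAP1LC3B: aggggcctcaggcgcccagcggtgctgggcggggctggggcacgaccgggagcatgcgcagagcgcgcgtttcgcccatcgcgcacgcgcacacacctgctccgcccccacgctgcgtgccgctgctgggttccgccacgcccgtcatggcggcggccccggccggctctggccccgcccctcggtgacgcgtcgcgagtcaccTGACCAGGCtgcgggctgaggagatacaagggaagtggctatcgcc

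All 10 genes had at least 1 such RefSeq window, 14 windows in all, each searched over 250 bases before and 50 after the start. The WIPI1 stretch above held 9 GC boxes, several of them in a tandem repeat, and the SQSTM1 stretch held 4. The MAP1LC3B stretch held 3, left in lower case, and the full window of ULK1, which was not called, held 5. At least 1 GC box was found for 9 of the 10 genes, BECN1 being the exception, and in 45.0% of 35116 RefSeq windows. No window of the 10 genes held the CLEAR core TCACGTGA, which the lysosomal regulator TFEB is known to bind, or the E-box CACGTG contained in it, which 0.98% and 7.26% of all windows hold. The antioxidant response element core, found in 13.3% of all windows, was in the MAP1LC3B window alone, and the ATF4-type element TGATGNAA (3.62% of all windows) in none. The hypoxia response core ACGTG, which the E-box also contains, was found once each for ATG5 and ATG9A, and in 21.4% of all windows. These matches and their absence describe the letters of these windows only.

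SQSTM1 encodes p62, which links ubiquitinated cargo and KEAP1 to ATG8 proteins. The gene (ENSG00000161011) spans chromosome 5, 179806398 to 179838078, on the plus strand of GRCh38. The shControl libraries 1 to 3 read 699.8, 674 and 628 CPM, and the shACSL4 libraries 1 to 3 read 385, 416 and 392 CPM. Every shACSL4 library lay below every shControl library, and the gap between the groups was larger than the range within either. Group means were 667 ± 36.5 and 398 ± 16.4 CPM (SD, n = 3), a log2 fold change of -0.75 (SE 0.09, edgeR adjusted p = 3.9e-06). SQSTM1 was called lower in all 16 alternatives run, at -0.80 to -0.63.

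MRNIP and MGAT4B, which overlap SQSTM1 on the opposite strand, share 1582 and 105 of its exonic bases, or 20.7% and 1.37%. MRNIP changed by -0.39 (edgeR adjusted p = 0.003) and MGAT4B by -0.50 (adjusted p = 0.00017). Their mean counts were 645 and 9077, against 8556 for SQSTM1. Since the use of strand in counting is not given, reads of these shared bases cannot be assigned with certainty to either gene.

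NBR1 encodes the second ubiquitin-binding receptor, which acts with p62 and also in the removal of peroxisomes. It lies on chromosome 17, 43170481 to 43211689, plus strand (ENSG00000188554). Libraries 1 to 3 of shControl gave 248, 229.9 and 233 CPM, and libraries 1 to 3 of shACSL4 gave 197, 191 and 184 CPM. The groups were separate, with all shACSL4 values below the lowest shControl value. The mean went from 237 ± 9.94 to 191 ± 6.66 CPM (SD, n = 3), a log2 fold change of -0.32 (SE 0.08, edgeR adjusted p = 0.0049). Relative to its chromosomal neighbours the change was -0.05 (adjusted p = 0.645), and a test against a fold of 1.2 did not call it (adjusted p = 0.238). The noncoding gene AC060780.1 on the opposite strand, with a mean of 699 counts, shares 5.51% of the exonic bases of NBR1 and was not called (-0.09, adjusted p = 0.593).

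Both receptors' transcripts were also compared with each other. Per length, on the authors' FPKM scale, SQSTM1 was 3.09, 3.22 and 2.96 times NBR1 in shControl replicates 1, 2 and 3. In shACSL4 replicates 1, 2 and 3 it was 2.14, 2.40 and 2.35 times NBR1. The ratio was thus lower in each shACSL4 library than in any shControl library (3.09 ± 0.131 against 2.30 ± 0.134, SD, n = 3), a difference that was not tested. Its size depends on the lengths used, which for FPKM join all exons of a gene. Per kilobase of main transcript, mean levels of SQSTM1 and NBR1 were 223 and 50.9 CPM in shControl. In shACSL4 they were 133 and 40.9 CPM.

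MAP1LC3B encodes LC3B, the ATG8 protein most used to mark autophagosomes, and lies on chromosome 16, 87383995 to 87404779, plus strand (ENSG00000140941). In libraries 1 to 3 its level was 103.9, 115 and 116 CPM with the control hairpin, against 116, 122 and 119 CPM with the ACSL4 hairpin. The groups overlapped, at means of 112 ± 6.71 and 119 ± 2.82 CPM (SD, n = 3). The log2 fold change of 0.09 (SE 0.08, 95% interval -0.09 to 0.26, edgeR adjusted p = 0.405) did not pass the test. With library size alone it was 0.21 (adjusted p = 0.0499). Reads of the near-identical copy MAP1LC3B2 (97.3% identity over 601 bases, mean 94.8 counts against 1853 for MAP1LC3B) could be split between both genes.

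GABARAPL1, of the GABARAP branch of the ATG8 family, is on chromosome 12, 10212458 to 10223130, plus strand (ENSG00000139112). It was a low transcript here, with 12.3, 11.9 and 12.1 CPM in libraries 1 to 3 of shControl and 8.85, 9.98 and 9.55 CPM in those of shACSL4. All shACSL4 values were below all shControl values. The levels of 12.1 ± 0.166 and 9.46 ± 0.569 CPM (SD, n = 3) gave a log2 fold change of -0.35 (SE 0.13, edgeR adjusted p = 0.0375). This call rested on every library but shControl replicate 2: the adjusted p was 0.0902 and 0.0643 without shControl replicate 1 or 3, and 0.124, 0.0559 and 0.0614 without shACSL4 replicate 1, 2 or 3. It was also lost with DESeq2 (0.0581), library size alone (0.167) and no filter (0.0743). AC115676.1, antisense over 8.05% of its exonic bases, and the pseudogene GABARAPL3, 94.7% identical over 263 bases, had 0 counts.

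Across the whole ATG8 family the summed FPKM was 42.1 ± 2.13 in shControl and 40.6 ± 2.16 in shACSL4 (SD, n = 3), and the groups overlapped. The shares within that sum were compared as descriptions, without a test. MAP1LC3B made up 49.2% to 49.9% of the sum in the shControl libraries and 51.2% to 56.1% in the shACSL4 libraries. The share of GABARAPL2 was 34.0% ± 0.327 in shControl and 26.3% ± 1.93 in shACSL4, that of GABARAPL1 7.0% ± 0.468 and 5.62% ± 0.324, and that of MAP1LC3A 0.961% ± 0.153 and 3.12% ± 0.519 (SD, n = 3). As levels, GABARAPL2 fell (log2 fold change -0.41, SE 0.10, edgeR adjusted p = 0.0035) and MAP1LC3A rose from 0.719 ± 0.135 to 2.25 ± 0.27 CPM (1.64, SE 0.34, adjusted p = 0.00089; SD, n = 3). MAP1LC3B2 (0.39, adjusted p = 0.115) and GABARAP (-0.07, adjusted p = 0.892) were not called, and MAP1LC3C, with 3 counts in all, was not tested. GABARAP had 138 counts in all, and 30.5% of its exonic bases are shared with AC120057.2, a gene on the same strand with 0 counts. How reads of such shared bases were counted is not given, so the GABARAP level may be understated. The shares also depend on the lengths behind FPKM, for MAP1LC3B 5313 bases against 2688 in its main transcript. They are therefore shares of FPKM and may differ from the true make-up of the family. On the log2(FPKM + 1) scale, which understates changes of low genes, MAP1LC3A rose by 0.68.

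**Figure D2:**
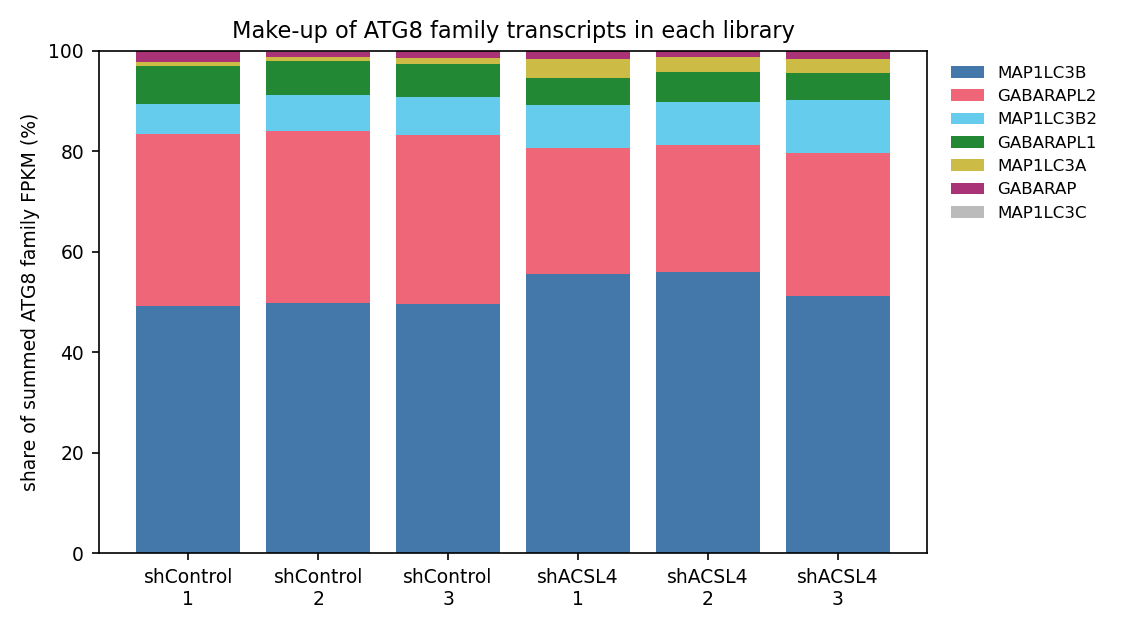
Share of each ATG8 family gene in the family's summed FPKM (vertical axis, %), 1 bar per library. MAP1LC3B makes up 49.2% to 49.9% of the shControl bars and 51.2% to 56.1% of the shACSL4 bars, and the GABARAPL2 part is smaller in each shACSL4 bar. The shares depend on the gene lengths behind FPKM and on how reads of bases that GABARAP shares with other genes were counted.

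ULK1 encodes the kinase that starts autophagosome formation (ENSG00000177169, chromosome 12, 131894651 to 131923167, plus strand). Its range was 73.0 to 86.4 CPM in shControl and 65.6 to 72.4 CPM in shACSL4, without overlap. The log2 fold change of -0.19 (SE 0.09, 95% interval -0.38 to 0.00) had an edgeR adjusted p of 0.0926. Without shControl replicate 2 the gene was called lower (-0.24, adjusted p = 0.0385). BECN1, which encodes the regulatory subunit Beclin 1 of the PI3-kinase complex (ENSG00000126581, chromosome 17, 42810134 to 42833350, minus strand), ranged from 82.9 to 88.2 CPM in shControl and from 74.2 to 82.4 CPM in shACSL4. Its change of -0.15 (SE 0.08, 95% interval -0.33 to 0.02, adjusted p = 0.146) did not pass, and it was 0.08 relative to neighbouring genes. CNTD1 on the opposite strand shares 12.4% of its exonic bases, at a mean of 41.3 counts (-0.63, adjusted p = 0.0667).

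WIPI1, whose protein binds PI3P on the forming membrane, showed the largest change of the 10 (ENSG00000070540, chromosome 17, 68420948 to 68457513, minus strand). The values in libraries 1 to 3 were 20.0, 22.5 and 22.6 CPM for shControl, against 9.62, 9.29 and 11.6 CPM for shACSL4. The highest shACSL4 library was still well below the lowest shControl library. With means of 21.7 ± 1.47 and 10.2 ± 1.27 CPM (SD, n = 3), the log2 fold change was -1.09 (SE 0.13, edgeR adjusted p = 3.5e-06). WIPI1 was called in all 16 alternatives, at -1.19 to -0.82. ARSG, on the opposite strand, shares 24.3% of the exonic bases of WIPI1 and had a mean of 17 counts (-0.61, adjusted p = 0.262). Over all genes tested, 10.8% changed by at least as much as WIPI1 in either direction, and 21.2% by at least as much as SQSTM1.

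ATG9A, the lipid scramblase carried on vesicles to the growing membrane (ENSG00000198925, chromosome 2, 219219380 to 219229717, minus strand), ranged from 37.4 to 45.5 CPM in shControl and from 43.5 to 50.5 CPM in shACSL4. These ranges overlapped, and the change of 0.15 (SE 0.10, 95% interval -0.07 to 0.36, edgeR adjusted p = 0.247) was not called. AC068946.2 on the same strand shares 38.8% of the exonic bases of ATG9A, the largest such share of the 10. It had a mean of 3.83 counts, too few to be tested. How reads of these shared bases were counted is not given, so the level of ATG9A may be understated. ATG5, part of the complex that directs ATG8 conjugation (ENSG00000057663, chromosome 6, 106045423 to 106325791, minus strand), was at 56.0 to 60.4 CPM in shControl and 51.2 to 51.8 CPM in shACSL4. Though separate between groups, it was not called (-0.18, SE 0.08, 95% interval -0.36 to -0.01, adjusted p = 0.0825). Relative to neighbouring genes its change was -0.26 (adjusted p = 0.0167).

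ATG7, the activating enzyme of both conjugation reactions (ENSG00000197548, chromosome 3, 11272309 to 11557665, plus strand), was the 1 gene of the 10 with all shACSL4 libraries above all shControl libraries. Libraries 1 to 3 read 18.6, 20.3 and 16.9 CPM under the control hairpin and 24.6, 20.7 and 22.0 CPM under the ACSL4 hairpin. Its change of 0.27 (SE 0.12, 95% interval 0.02 to 0.51) had an edgeR adjusted p of 0.0716. The call was made without shControl replicate 2 (0.33, adjusted p = 0.0398) and with library size alone (0.39, adjusted p = 0.0131). VGLL4, on the opposite strand, shares 18.1% of the exonic bases of ATG7 and was not called (-0.12, adjusted p = 0.373). It had a mean of 552 counts, against 331 for ATG7.

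**Figure D3:**
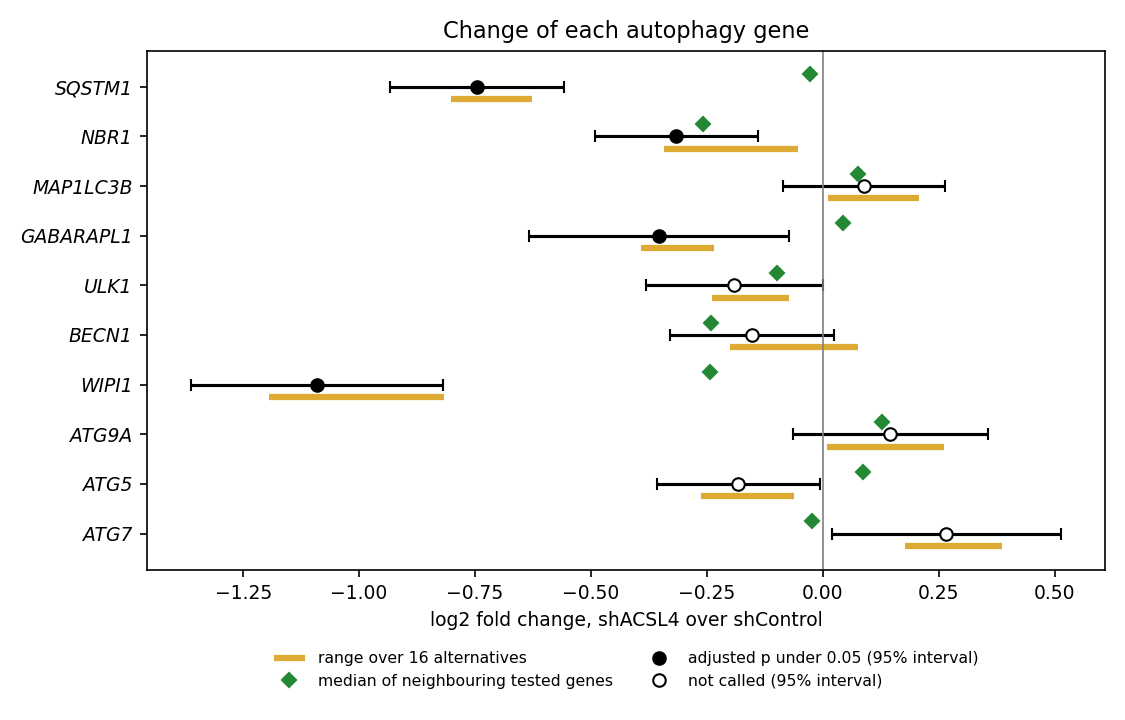
Log2 fold change of shACSL4 over shControl for each gene (horizontal axis) with its 95% interval, filled where the adjusted p was under 0.05; the bar under each point spans 16 alternatives and the diamond is the median of neighbouring tested genes. SQSTM1 (-0.75) and WIPI1 (-1.09) lie apart from their diamonds, whereas NBR1 (-0.32) lies close to its own (-0.26).

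The authors' deposited table gives log2 fold changes of -0.76 for SQSTM1, -0.33 for NBR1, -1.10 for WIPI1 and -0.37 for GABARAPL1. In the authors' deposited table the adjusted p of GABARAPL1 is 0.0958, and those of the 6 genes not called here range from 0.11 to 0.57.

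NBR1, BECN1 and WIPI1 lie on chromosome 17, where the median change of 979 genes tested was -0.16 and 32.8% were called lower. The 50 tested genes around NBR1 had a median log2 fold change of -0.26, with 21 called lower and 4 higher, and 23 of the 50 had a lower log2 fold change than NBR1. Around BECN1, whose window overlaps that of NBR1, the median was -0.24, with 22 lower and 7 higher, and the change of BECN1 itself lay above 28 of its 50 neighbours. WIPI1 had neighbours at a median of -0.24 as well, but 1 of 50 was lower than WIPI1, and its change relative to them stayed called. SQSTM1, near the end of chromosome 5, had 46 neighbours at a median of -0.03, of which 1 lay below it. At the other 6 genes the neighbours' median was between -0.10 and 0.13. What sets the level of the chromosome 17 neighbourhood was not tested. NBR2, a noncoding neighbour of NBR1 with 94.4% identity to it over 72 bases, rose (0.57, SE 0.12, edgeR adjusted p = 0.00091).

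Compared per length on the authors' FPKM scale, SQSTM1 was the most abundant of the 10 in both groups, at 86.6 ± 5.29 FPKM in shControl and 51.2 ± 2.26 FPKM in shACSL4 (SD, n = 3). In shControl there followed NBR1 (28.0), MAP1LC3B (20.9), BECN1 (13.3), ATG5 (10.3), ULK1 (10.2), ATG9A (8.94), WIPI1 (6.33), GABARAPL1 (2.94) and ATG7 (2.10 FPKM). Neighbours in this order were separate over the 3 libraries except ATG5 with ULK1 and ULK1 with ATG9A. In shACSL4, NBR1 (22.3) and MAP1LC3B (22.0 FPKM) overlapped, as did ATG5 with ULK1, WIPI1 (2.95) with ATG7 (2.50), and ATG7 with GABARAPL1 (2.28 FPKM). SQSTM1 thus remained above the next gene in every library. The deposited lengths equal the union of all GENCODE exons, 7654 bases for SQSTM1 against 2986 in its main transcript. With main transcript lengths SQSTM1 was still first in both groups, and MAP1LC3B ranked above NBR1 in shACSL4.

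**Figure D4:**
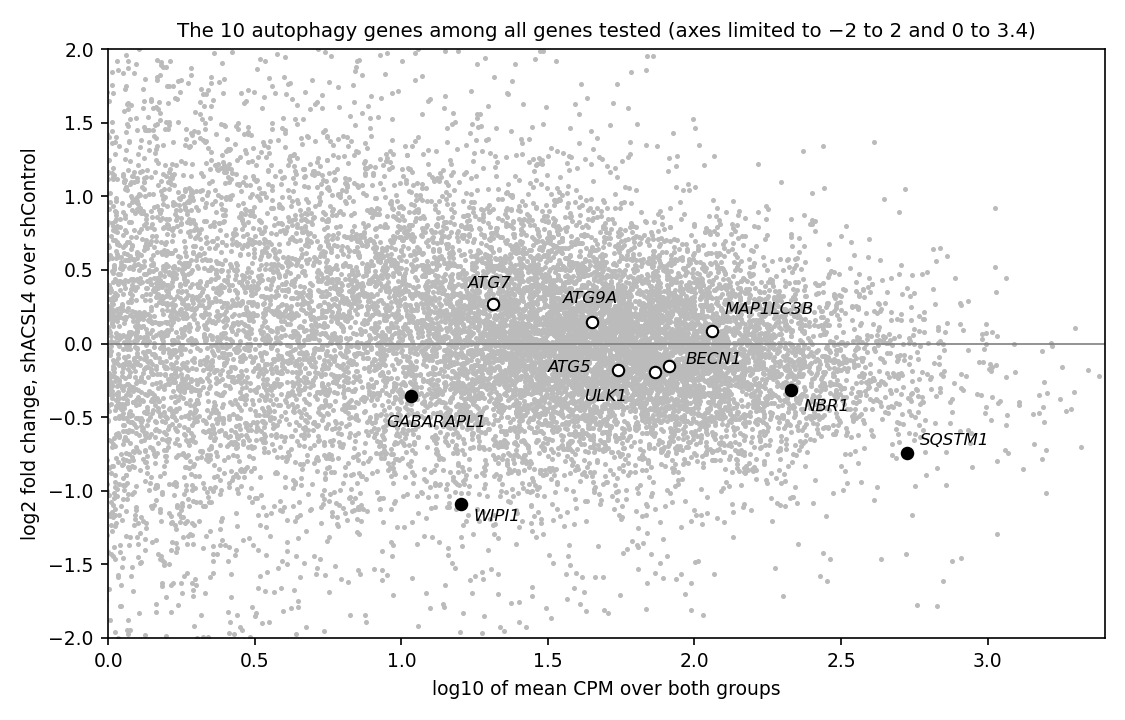
Log2 fold change (vertical axis) against log10 of the mean CPM over both groups (horizontal axis) for genes tested (grey, 13981 inside the axes and 1713 outside) and the 10 autophagy genes (filled where called). Read depth behind the called genes runs from GABARAPL1 on the left to SQSTM1 on the right (CPM is not per length), and WIPI1 at -1.09 lies lowest of the 10.

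Beside these 10, 96 further genes of the pathway were listed by role, and 93 were tested. Of these, 29 rose and 13 fell, so 45.2% were called against 47.2% of all genes. The shares of all genes tested, 24.0% higher and 23.1% lower, stand beside each main count of the lists below. Their median was 0.11, with 51 not called. With library size alone 40 rose and 10 fell, and relative to neighbouring genes 27 rose and 18 fell. Median-of-ratios scaling left the split at 29 and 13. The split between rises and falls thus moved in some of these settings only. With library size alone, 31.1% of all genes were higher and 16.3% lower.

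Within the ULK complex, of 4 genes tested ATG13 rose (0.38, SE 0.08, edgeR adjusted p = 0.0012) and its partner ATG101 fell (-0.49, SE 0.10, adjusted p = 0.00067). Of 7 genes of the PI3-kinase complex, 2 rose and 1 fell. The kinase's regulatory subunit PIK3R4 changed by -0.31 (not called with library size alone), and the Beclin 1 partners ATG14 and AMBRA1 by 0.30 and 0.28. Neither of these rises was called without shACSL4 replicate 2, ATG14 also not without shControl replicate 1, and AMBRA1 also not without shControl replicate 2 or 3 or shACSL4 replicate 1.

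Of 9 genes of phagophore growth, 3 were higher and 1 lower, where 24.0% of all genes tested were higher and 23.1% lower. ATG2B, a lipid transfer protein, rose from 27.1 ± 3.86 to 75.9 ± 7.42 CPM (1.49, SE 0.11, edgeR adjusted p = 1.6e-08; SD, n = 3). The WIPI relatives WDR45 and WDR45B went opposite ways, at 0.75 (SE 0.10) and -0.88 (SE 0.08, adjusted p = 2.9e-07). WIPI2, the closest relative of WIPI1, was at 120.2 and 119.8 CPM and was not called (0.00, adjusted p = 0.971). WDR45B lies in a stretch with a running median of -0.36, and relative to it its change was -0.52, still called.

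Of 9 further conjugation genes 1 was called, the ATG8 protease gene ATG4A (0.39, SE 0.12, edgeR adjusted p = 0.0149), and 0 fell; the call of ATG4A was lost without shControl replicate 1 or shACSL4 replicate 1 or 3. ATG3, ATG12 and ATG16L1, which act with ATG5 and ATG7, were at 0.05, 0.14 and 0.11 and were not called. With library size alone 3 of the 9 were called higher, where 31.1% of all genes were, so that count is near the background.

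Of 17 other receptor genes, 4 fell and 3 rose, with a median of -0.09. The mitophagy receptors BNIP3 and BNIP3L fell, at -1.80 (SE 0.10) and -0.90 (SE 0.09, edgeR adjusted p = 5.5e-07). TAX1BP1, a ubiquitin-binding receptor like p62 and NBR1, changed by -0.50 (adjusted p = 0.00012), and RTN3, a receptor for endoplasmic reticulum, by -0.42. The rises were OPTN (0.53), NCOA4 (0.42), the ferritin receptor, and WDFY3 (0.44). Relative to their neighbours, whose running median was 0.35 at OPTN and 0.61 at NCOA4, OPTN was at 0.19 (adjusted p = 0.114) and NCOA4 at -0.19 (adjusted p = 0.0717). In that setting 6 of the 17 were called lower and 0 higher, where 3441 of all 15694 genes were lower and 3406 higher. CALCOCO2, a further ubiquitin-binding receptor, was not called (-0.14, adjusted p = 0.224).

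In the fusion list 5 of 14 genes rose and 2 fell, where 24.0% of all genes tested were higher and 23.1% lower. VPS11 (0.58) of the HOPS tether and TECPR1 (0.50), which bridges autophagosome and lysosome, rose, while the small GTPase RAB7A and the SNARE VAMP8 were at -0.27 each. The calls of RAB7A and VAMP8 were lost without shControl replicate 1, without shACSL4 replicate 2 and with library size alone, and that of VAMP8 also without shControl replicate 2 or shACSL4 replicate 1. In the lysosome list 3 of 11 rose and 2 fell, beside the same shares of all genes. The calcium channel MCOLN1 (1.34, SE 0.15) and the chloride transporter CLCN7 (0.63) rose, the membrane protein LAMP2 fell from 428 ± 10.7 to 254 ± 15.7 CPM (-0.75, SE 0.09, edgeR adjusted p = 2.6e-06; SD, n = 3) and the proton pump subunit ATP6V1B2 by 0.34 on the log2 scale. LAMP1 was not called (0.02, adjusted p = 0.863).

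The list upstream of ULK1, which holds the mTORC1 complex that restrains it and the AMPK complex that activates it, had 10 of 18 genes higher and 1 lower, at a median of 0.27, where 24.0% of all genes tested were higher and 23.1% lower. The number higher was 7 without shACSL4 replicate 2. It was 4 against a fold of 1.2 (15.6% of all genes) and 13 with library size alone (31.1% of all genes). PRKAA2, a catalytic AMPK subunit, went from 0.623 ± 0.188 to 5.07 ± 0.661 CPM (3.00, SE 0.30, edgeR adjusted p = 5.5e-07; SD, n = 3), and the mTOR inhibitor DEPTOR from 16.6 ± 1.32 to 39.7 ± 4 CPM (1.25, SE 0.11). The rise of PRKAA2 was 0.52 on the log2(FPKM + 1) scale. RHEB, the GTPase that activates mTORC1, fell (-0.69, SE 0.08). MTOR (0.35), TSC1 (0.46), TSC2 (0.26) and PRKAA1 (0.24), the AMPK subunit with more reads, were also called higher, whereas RPTOR (0.13, adjusted p = 0.276) was not.

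**Figure D5:**
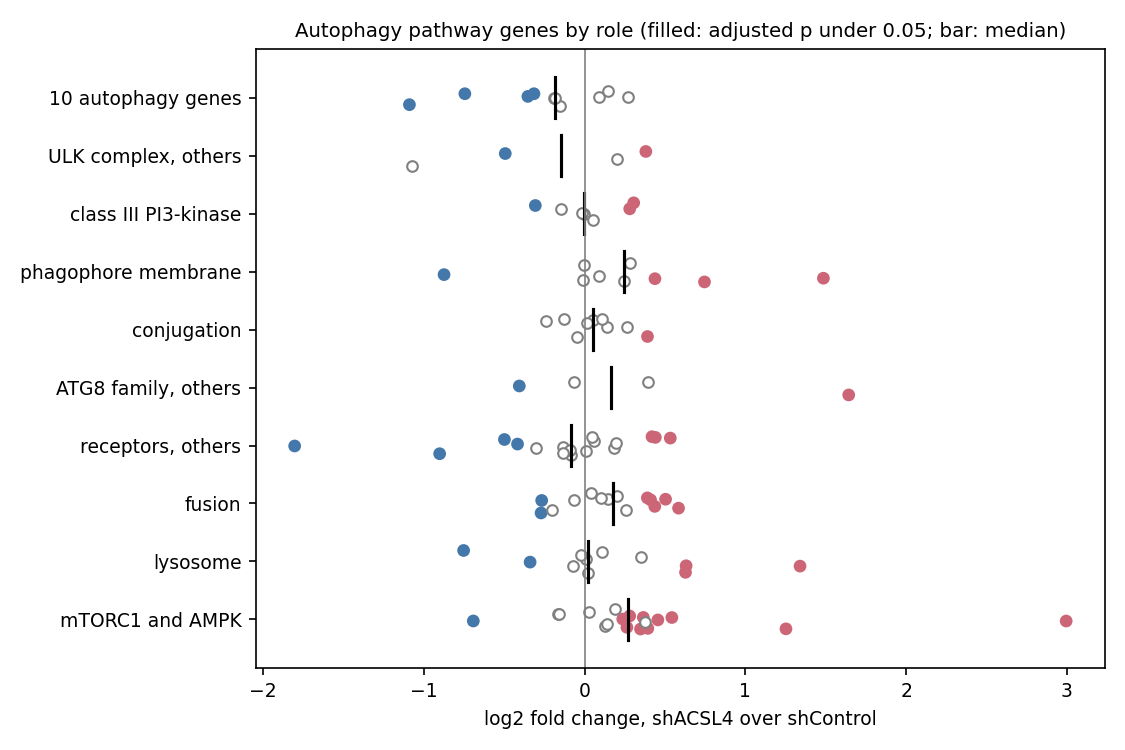
Log2 fold change of shACSL4 over shControl (horizontal axis) for each tested gene of the autophagy lists, by role (vertical axis); filled points passed an adjusted p under 0.05 and bars mark list medians. The 10 genes at the top have 4 filled points, all below 0, and the mTORC1 and AMPK list at the bottom has 10 above 0 and 1 below.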

How the data were processed

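RNA was measured by sequencing after removal of ribosomal RNA, per the labels' protocols. CASAVA, HISAT2 and GRCh38 (hg38) are named in the submitters' processing notes. No source used here names the counting tool or its strand setting. The deposited table holds raw counts per gene and FPKM per library, per the file headers. It also holds the authors' group mean signal of scaled counts (not used), their log2 fold changes and their p-values. Its control columns, prefixed NC, were taken as shControl and matched by number. Start and end were those of GENCODE 29 for 58724 of 58735 genes.

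Genes were kept by filterByExpr, scaled by TMM and tested, without covariates, by the quasi-likelihood method of edgeR 4.0.16 under R 4.3.3 with limma 3.58.1. P-values were Benjamini-Hochberg adjusted over all 15694 genes tested, and a gene was called at an adjusted p under 0.05. At this depth 3 counts equal 0.171 to 0.202 CPM, a limit of counting error only, as PCR reads are not independent molecules. Alternatives were DESeq2 1.42.0, limma-voom, limma-trend on log2(FPKM + 1), other scalings and filters, the replicate block, leaving out each library, a test against a fold of 1.2, and subtraction of a running median over 51 genes in chromosome order, taken as a fixed value. The fitting step was tested on simulated data in which few genes were changed, whereas 47.2% were called here. That run therefore cannot show the rate of false calls in these data.

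The 10 genes and the gene lists were chosen with earlier results of these data known. Text names all 10 genes, ACSL4, up to 2 called genes per direction of each of 9 pathway lists by adjusted p, and genes overlapping or copying one of the 10 (some with almost no counts are left out); other genes were named after their values were seen. Copies were sought with blastn at 90% identity or more.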

Additional observations from a re-analysis of the deposited data

How the results depend on the processing

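Over 16 alternatives SQSTM1 and WIPI1 kept their call and direction. Against a fold of 1.2, 2 of the 10 genes (SQSTM1 and WIPI1), 23 of the 93 further pathway genes and 4650 of all genes were called. The same counts were 4, 42 and 7400 in the main comparison, and leaving out 1 library gave 3 to 6, 34 to 46 and 6122 to 7251. Relative to neighbouring genes BECN1 reversed to 0.0757 (adjusted p = 0.504, and not called in any of the 16 alternatives). With the replicate number as a block, 4 of the 10 genes, 43 pathway genes and 7414 of all genes were called, and no call among the 10 changed. The numbers did not pair the samples: same-numbered libraries had correlations of deviations from their group means of 0.0623, -0.00128 and 0.00753. With library size alone 65.6% of calls were higher, against 50.9% in the main comparison, and 80.0% against 69.0% among the pathway genes. The cause of these shifts was not tested. Depth limits mainly GABARAPL1, WIPI1 and ATG7, with mean counts of 173, 255 and 331.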

Other observations

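Of the further pathway genes not called, the kinase gene ULK2 and the transcription factor gene TFEB came closest to the threshold. Both were named after their values were seen, and others not named here lay only a little further from it. ULK2, a relative of ULK1, had 86 counts over the 6 libraries and a log2 fold change of -1.07 (SE 0.44, edgeR adjusted p = 0.0521). TFEB, a regulator of lysosomal and autophagy genes, was at 8.65 and 11.0 CPM in shControl and shACSL4 (0.35, SE 0.14, adjusted p = 0.0501), and its relative TFE3 was not called (-0.07, adjusted p = 0.509). MITF, with 16 counts in all, and RRAGD, with 29, were below the filter. Among the further genes that overlap one of the 10, PSME3 (300 exonic bases shared with BECN1) was at -0.03 and FBXO31 (150 shared with MAP1LC3B) at 0.13, neither called by edgeR (adjusted p = 0.765 and 0.203).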
